A study of Homo sapiens with 4 samples.

Results

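Long terminal repeat (LTR) retroelements are the remains of retroviruses that entered the germ line of human ancestors. Each full copy held viral genes between a pair of LTRs, and most copies have since recombined to a single LTR, which carries the viral promoter and enhancer and can still bind transcription factors of the host. The peaks described here were those of an APC chromatin immunoprecipitation (ChIP-seq) whose centre the deposited annotation placed in such an element. They numbered 240 of the 6263 peaks of replicate 1 (3.83%) and 413 of the 8393 peaks of replicate 2 (4.92%). They were chosen by the repeat name in the annotation alone, with no use of peak size or of the other replicate. The annotation gave a repeat name only to peaks in introns or between genes, so that an LTR serving as an annotated promoter or exon was not among them.

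The chromatin came from HCT-116, a line established from a human colon cancer that makes full-length APC and carries a β-catenin mutation that removes Ser45. Antibodies against the C terminus of APC, a tumor suppressor best known as a scaffold of the complex that degrades β-catenin, were used on 2 biological replicates, each with its own input chromatin. The labels name no treatment, and the replicates were prepared months apart, so that replicate and date cannot be told apart. The ChIP reactions of a replicate were pooled from parallel reactions before sequencing. The files held peak positions and widths and no read counts, so the depth was unknown, the input enters only through the peak calling, and peak width (in bp) is the one measure of size. Tests over regions describe these 2 libraries and not the spread between cultures, and copies of 1 subfamily share their sequence by descent.

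LTR peaks were found again in the other replicate more often than peaks in LINEs and SINEs, though for SINEs the difference passed the test in replicate 1 only. Of the 240 replicate 1 LTR peaks, 170 (70.8%, 95% interval 64.6 to 76.5) had a replicate 2 centre under 400 bp away, against 63.6% of all replicate 1 peaks. Of the 413 replicate 2 LTR peaks, 165 (40.0%, 35.2 to 44.9) had a partner, against 45.5% of all replicate 2 peaks. In replicate 1, the shares were 47.2% of 290 peaks in LINEs and 41.9% of 253 peaks in SINEs, which are the long and short interspersed elements and have no LTRs. The LTR share was higher by 23.6 percentage points than that of LINEs (adjusted p = 1.59e-07) and by 28.9 points than that of SINEs (adjusted p = 7.34e-10; Fisher's exact test, two-sided, Benjamini-Hochberg over 8 comparisons). In replicate 2, LTR peaks exceeded LINE peaks by 10.9 points (29.0%, adjusted exact p = 0.00206), and the 7.03 points above SINE peaks (32.9%) did not pass (adjusted exact p = 0.0619). Replicate 1 LTR peaks were also wider, with a median of 357 bp against 264.5 bp in LINEs and 221 bp in SINEs. In replicate 2 these medians were 502, 435.5 and 508.5 bp. The part of width in these differences was not tested. Among peaks in DNA transposons, 61.0% of 59 were shared in replicate 1 and 31.5% of 127 in replicate 2.

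Against all other peaks, the 2 lists differed in direction. LTR peaks were shared 7.51 points more often in replicate 1 and 5.84 points less often in replicate 2 (adjusted exact p = 0.036 for each). Neither difference held against other peaks in introns or between genes without satellite repeats, where the values were 4.23 points in replicate 1 (adjusted p = 0.202) and -5.08 points in replicate 2 (adjusted exact p = 0.0619). LTR peaks also made up a smaller part of the replicate 1 list than of the replicate 2 list, by 1.09 points (Fisher's exact test, p = 0.00158). Within the wider 50% of each list this difference was 0.79 points and did not pass (exact p = 0.0953).

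**Figure D1:**
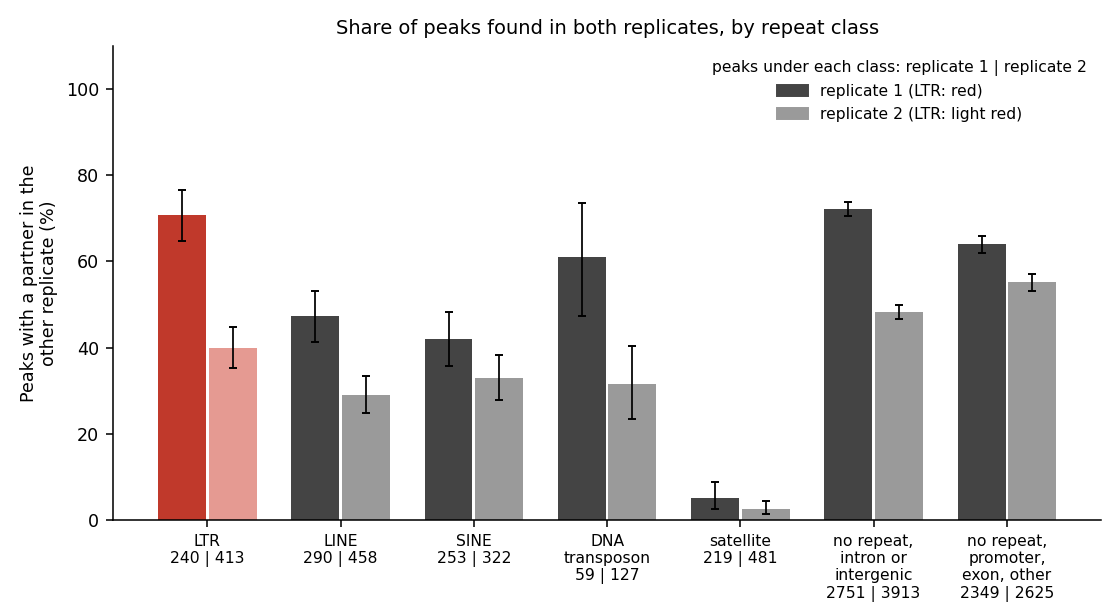
Share of peaks with a partner in the other replicate (%), by the repeat class of the annotation, in replicate 1 (dark) and replicate 2 (light). Bars are shares with exact 95% Clopper-Pearson intervals, and the numbers under each class are its peaks in replicate 1 and replicate 2. LTR peaks reached 70.8% in replicate 1, above LINE (47.2%) and SINE (41.9%) peaks, and satellite peaks were nearly all found in 1 replicate only.

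The shared LTR regions were near other shared peaks in width, while LTR peaks as a whole were narrower than other peaks in replicate 2. Replicate 1 widths of the shared LTR regions ran from 129 to 1401 bp with a median of 418 bp, beside 433 bp for other shared peaks. Their replicate 2 widths ran from 250 to 4359 bp with a median of 638.5 bp, beside 644 bp for the other shared peaks of replicate 2. In 160 of the 170 (94.1%) the replicate 2 peak was the wider one, with a median ratio of 1.60, beside 90.3% and a median ratio of 1.50 among the 3814 other shared regions. LTR peaks, shared or not, were wider than the median of their list in 46.7% of replicate 1 cases against 49.9% of other peaks (Fisher's exact test, p = 0.357), and in 45.0% of replicate 2 cases against 50.2% (p = 0.0435). In replicate 2 the difference was -7.38 points against others without satellites (exact p = 0.00389). It was -5.13 points against other intron and intergenic peaks without satellites (exact p = 0.0458). Among the 500 shared regions with the lowest mean width rank, 23 (4.60%) were LTR regions, against 4.22% of the rest (exact p = 0.722). LTR peaks without a partner had median widths of 178 bp in replicate 1 and 427.5 bp in replicate 2.

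The replicate 2 partner of a shared region lay in an LTR in 144 of 170 cases and in the same named subfamily in 140, and the centres were a median of 58.5 bp apart. Sharing itself required centres under 400 bp apart, so that the rule favors such agreement. LTR peaks lay between genes more often than other peaks outside promoters and exons. In replicate 1, 152 of 240 LTR peaks (63.3%) were intergenic, against 49.8% of the other intron and intergenic peaks without satellites, and in replicate 2 they were 283 of 413 (68.5%) against 47.9% (adjusted p = 5.75e-05 and 1.86e-15, Fisher's exact test over 3 comparisons chosen after the values were seen). Of the 170 shared regions, 10 lay within 5 kb of an annotated transcription start site and 77 lay over 50 kb away.

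**Figure D2:**
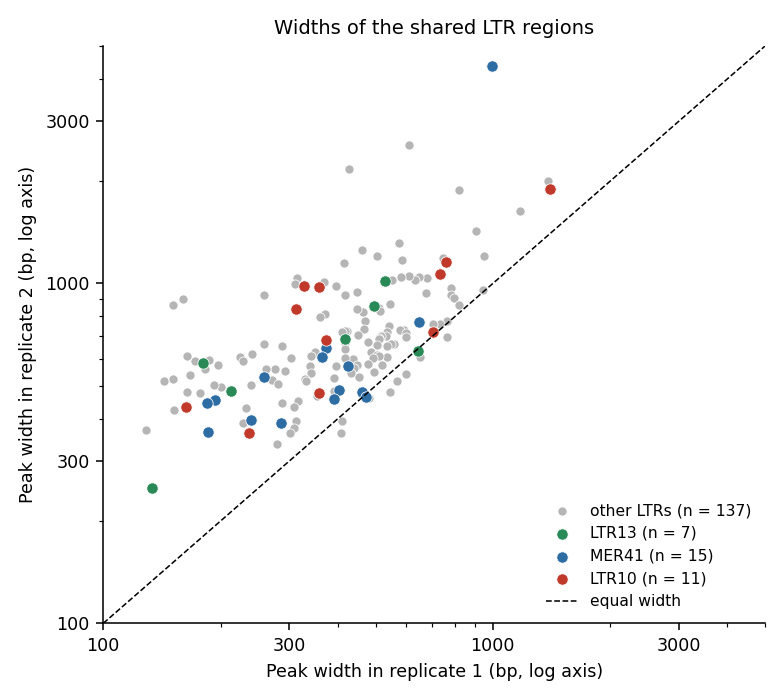
Peak width in replicate 1 (horizontal) and replicate 2 (vertical) of the 170 shared LTR regions, in bp on log axes. Each point is 1 region, coloured for the LTR10, MER41 and LTR13 groups, and 160 of the 170 points lie above the dashed line of equal width.

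The members spread over many subfamilies. Replicate 1 peaks fell 99 in ERV1, 60 in ERVL-MaLR, 56 in ERVL, 18 in ERVK and 7 in other LTR families, of which 73, 40, 40, 12 and 5 were shared. ERV1, ERVL and ERVK are the 3 classes of human endogenous retrovirus, and ERVL-MaLR holds older relatives that spread through mammals. The replicate 2 peaks of the same families numbered 178, 117, 83, 24 and 11, of which 69, 43, 36, 11 and 6 were shared. The share found in both replicates ran from 66.7% to 73.7% over the families in replicate 1 and from 36.8% to 54.5% in replicate 2.

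By subfamily group, MLT1, a set of old ERVL-MaLR LTRs, gave the most shared regions, with 34 of 50 replicate 1 peaks. Internal viral parts, whose names end in -int, gave 19 of 32, MER41 gave 15 of 17, LTR10 gave 11 of 14, LTR13 gave 7 of 11 and LTR8 gave 6 of 8. LTR33 and MLT2 had 4 shared regions each and THE1 had 3. LTR12, LTR16, LTR7, MER11 and MST had 2 each, and MER39 and MER61 had 1 each. LTR5, the LTR of the youngest human retroviruses, held 1 replicate 2 peak that was not shared, and LTR2 held none in either list. MER41 peaks numbered 17 in replicate 1 and 43 in replicate 2. Of those 43, 28 had no partner and 34.9% had one, beside 40.0% of all replicate 2 LTR peaks. LTR7, the LTR of HERVH viruses, gave 3 peaks in replicate 1 and 10 in replicate 2, of which 1 had a partner.

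**Figure D3:**
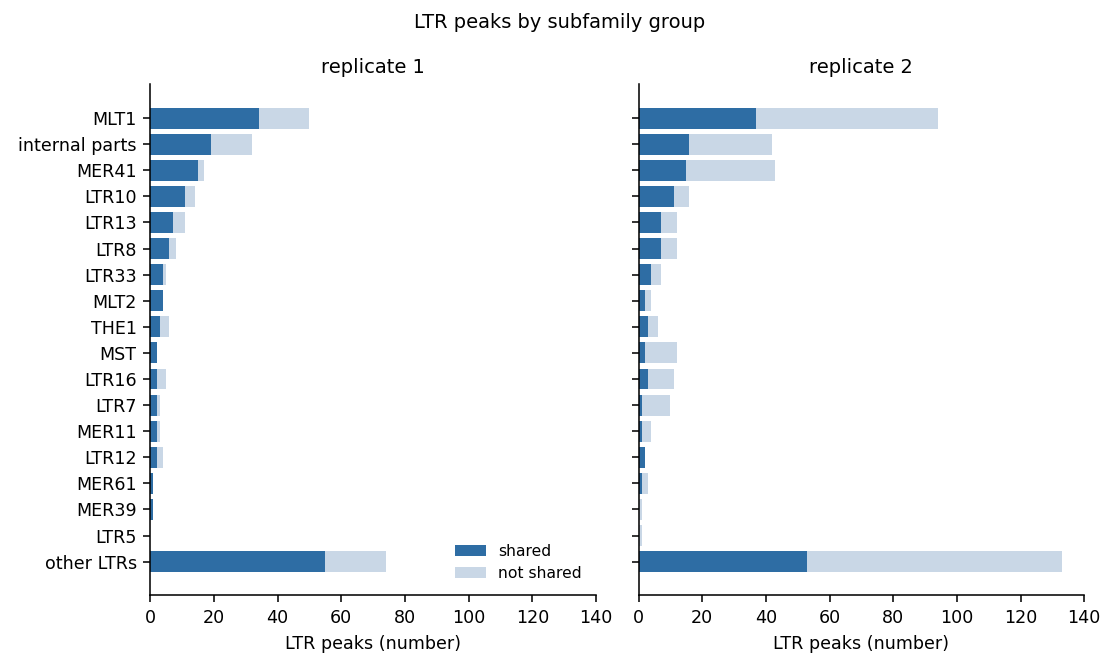
Number of LTR peaks in each subfamily group in replicate 1 (left) and replicate 2 (right), split into peaks shared with the other replicate (dark) and not shared (light). MLT1 held the most peaks of any named group, 50 in replicate 1 and 94 in replicate 2, and MER41 went from 17 to 43.

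Subfamilies with at least 5 shared regions were LTR10F, LTR13 and MER41B with 7 each, MER21C and MER41A with 6 each, and MLT1G1 and MLT1I with 5 each. All 6 MER41A peaks, all 5 MLT1G1 peaks and all 5 MLT1I peaks of replicate 1 were shared, beside 70.8% of all its LTR peaks. In replicate 2, 6 of 15 MER41A, 5 of 5 MLT1G1 and 5 of 14 MLT1I peaks were shared, beside 40.0% of its LTR peaks. LTR10F had 7 of 9 shared there, LTR13 7 of 11, MER21C 5 of 8 and MER41B 6 of 24. The LTR10, MER41 and LTR13 groups are described by sequence below the subfamily level, a choice made after their values were seen. All coordinates are on hg19.

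LTR10F, an ERV1 LTR, carried a short tandem repeat that holds the AP-1 motif, the letters TGAGTCA or TGACTCA that FOS and JUN proteins bind. All 7 shared LTR10F regions held between 4 and 11 matches in the 400 bp around the replicate 1 centre. In the 800 bp around the centre the 7 regions held 52 matches, and 31 of the 45 steps from one match to the next were exactly 28 bp and 7 were 17 bp. A like array stood in an LTR10A copy on chromosome 1, shown here as 300 bases from 5′ to 3′ on the plus strand, with AP-1 matches in capitals.
LTR10A NID1, chr1:236260370-236260669: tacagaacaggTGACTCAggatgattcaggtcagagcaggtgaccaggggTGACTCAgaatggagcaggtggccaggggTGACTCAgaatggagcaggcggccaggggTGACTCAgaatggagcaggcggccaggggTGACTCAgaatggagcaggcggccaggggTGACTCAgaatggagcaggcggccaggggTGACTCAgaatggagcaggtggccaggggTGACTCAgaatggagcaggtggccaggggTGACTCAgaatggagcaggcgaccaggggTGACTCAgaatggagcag
The LTR10A copy had 11 matches in 400 bp, all of the form TGACTCA, and 9 of its 10 steps were 29 bp and the other was 39 bp.

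The widest LTR10 region was an LTR10F copy at chr5:115265562-115266961, 31890 bp upstream of AQPEP, which codes for the aminopeptidase laeverin and is named LVRN in newer annotation. Its peak was 1401 bp wide in replicate 1 and 1892 bp in replicate 2, the widest replicate 1 peak of all shared LTR regions. A second copy at chr5:115264334-115265089 lay 473 bp away and gave peaks of 757 and 1159 bp. A pair at chr5:82271446-82272177 and chr5:82264977-82265332, both assigned to SCARNA18, gave 733 and 1066 bp and 357 and 976 bp. The single copies gave 313 and 841 bp at LOC100507201 (chr2:81885509-81885820), 236 and 362 bp at LOC101927620 (chr14:53648375-53648609) and 163 and 432 bp at LINC00448 (chr13:63217251-63217412). In all 7 the replicate 2 peak was the wider one, and the centres agreed within 95.5 bp.

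The LTR10A region at chr1:236260403-236260758, in the surroundings of NID1, which codes for the basement membrane protein nidogen 1, was 357 bp wide in replicate 1 and 475 bp in replicate 2. The remaining 3 shared LTR10A regions held no AP-1 match, and they held 22, 4 and 4 copies of TGACTAA, which differs from the motif by 1 base. Regions with 4 or more AP-1 matches were 8 of the 11 LTR10 regions, 0 of the 159 other shared LTR regions and 6 of the 2301 other shared regions in introns or between genes. An LTR10F peak of replicate 1 near ANKRD10 (chr13:111617592-111618147, 557 bp) held 8 matches and overlapped a replicate 2 peak, but its centre lay 467.5 bp from that of its partner and it counted as unshared. AP-1 matches were in 2 of the 3 unshared LTR10 peaks of replicate 1, with 2 matches at UBASH3B and 0 at UCA1, and in 2 of the 5 unshared ones of replicate 2, beside 8 of 11 shared.

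The arrays were few in the genome. In hg19, 126 runs held at least 4 AP-1 matches with no step over 60 bp, and 11 of them lay in a shared region, 8 of which were LTR10 regions. Of the 39 runs with at least 7 matches, 10 lay in a replicate 1 peak, 11 in a replicate 2 peak and 7 in a shared region, 6 of them LTR10.

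Repeated sequence limits where 50-base reads can be placed, and the sources used here do not say how reads with several positions were treated. Of the shared LTR10 windows of 400 bp, 3 of 11 had every 50-base stretch unique in hg19, and the median was 65.5% unique stretches. The AQPEP copy at chr5:115264334-115265089 had 39.9% and the LTR10A copies at LOC403323 and LOC101928381 on chromosome 9 had 14.2% and 28.5%, while the copies at LINC00448 and LOC100507201 had 100%.

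MER41, an ERV1 LTR of primates, gave 15 shared regions, with 1 more in its internal part. The letters GGAATG, the site of the TEAD proteins that work with YAP, were in 13 of the 15 and in the internal part, whereas AP-1 matches were in 2 of the 15. GGAATG was in 40.0% of all shared LTR regions, 41.6% of shared LINE regions and 28.3% of the 2301 other shared regions in introns or between genes. AP-1 was in 51.2% of all shared LTR regions and 49.9% of those 2301. In 13 of the 14 MER41 regions with GGAATG, the internal part included, the match lay in the same stretch of the element. The 30 bases of this stretch were the most frequent base of the set at 24 to 29 positions. The 6 letters of GGAATG count among these positions by construction, and the most frequent bases were taken from the same 14 stretches. In the remaining region, at SECTM1, 10 of the 30 bases were the most frequent ones. The match in that stretch lay 6 to 95 bp from the replicate 1 centre, with a median of 30 bp, and within 50 bp in 11 of 13. The least alike copies of the stretch are not printed: MIR5702 and DEPDC5 had the most frequent base at 25 positions, and ST6GALNAC2 and ANKRD10 at 24. The lines that follow show it in 6 copies that had the most frequent base at 26 to 29 positions, with GGAATG in capitals.
MER41B LOC100507065, chr12:65955845-65955874: cctgacctcctgGGAATGcagcccagtagg
MER41B CLEC3B, chr3:45106667-45106696: cctaaccttttgGGAATGcagcccagtagg
MER41B INO80, chr15:41431437-41431466: cctaagctcctgGGAATGcagtccagcagg
MER41B LINC01363, chr1:167130722-167130751: cctaacctcctaGGAATGcagcccggcagg
MER41A SUSD2, chr22:24600048-24600077: cttgacctcttgGGAATGcagcccagtagg
MER41A NCS1, chr9:132913246-132913275: cttaatcgtctgGGAATGcagcccagtagg
Copies at CLEC3B and NCS1 are on the plus strand and the other 4 on the minus strand. Of the 15 MER41 windows, 2 had every 50-base stretch unique, with a median of 96.6% unique stretches and a minimum of 78.3%.

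Replicate 1 widths of the 15 MER41 regions ran from 185 bp at CLEC3B to 997 bp at MIR378D2, and the second widest, at SECTM1, was 645 bp in replicate 1 and 770 bp in replicate 2. The INO80 copy (chr15:41431204-41431664), near the gene of a chromatin remodelling ATPase, was 462 bp wide in replicate 1 and 479 bp in replicate 2. The SUSD2 copy (chr22:24599875-24600237) was 364 and 608 bp wide, the CLEC3B copy (chr3:45106583-45106766) was 185 and 446 bp, and the DEPDC5 copy (chr22:32196139-32196323) was 186 and 366 bp. In replicate 2, GGAATG was in 14 of 15 MER41 peaks with a partner and in 21 of 28 without one, beside 40.0% of all 413 LTR peaks.

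LTR13, an LTR of the ERVK class, carried the palindrome CACGTG, an E-box bound by USF and MYC proteins. All 7 shared LTR13 regions held it in the 400 bp around the replicate 1 centre, though at FTCD and GMEB2 it lay past the end of the replicate 1 peak, against 12.9% of all shared LTR regions and 12.3% of the 2301 other shared regions in introns or between genes. In 5 of the 7 it stood as a pair whose starts were 9 bp apart. The stretch of 35 bases around it is shown for all 7, with CACGTG in capitals, and at FTCD and GMEB2 1 member of the pair has changed.
LTR13 LOC101927746, chr7:100952733-100952767: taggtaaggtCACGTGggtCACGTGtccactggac
LTR13 TCFL5, chr20:61505627-61505661: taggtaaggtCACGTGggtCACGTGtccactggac
LTR13 ATAD3A, chr1:1440569-1440603: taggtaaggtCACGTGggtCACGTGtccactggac
LTR13 TUBGCP6, chr22:50680134-50680168: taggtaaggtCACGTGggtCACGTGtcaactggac
LTR13 PRR16, chr5:119793687-119793721: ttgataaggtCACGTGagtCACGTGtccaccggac
LTR13 FTCD, chr21:47564013-47564047: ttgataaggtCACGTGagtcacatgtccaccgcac
LTR13 GMEB2, chr20:62246184-62246218: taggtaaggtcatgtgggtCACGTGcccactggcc
The copies at TCFL5, TUBGCP6, FTCD and GMEB2 are on the minus strand. Such a pair occurred 176 times in hg19, and 6 of these lay in a replicate 1 peak and 7 in a replicate 2 peak. The 5 in shared regions were the 5 LTR13 copies.

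The sequences are listed by replicate 1 width, an order that replicate 2 did not keep. The copy at LOC101927746 was 643 bp wide in replicate 1 and 635 bp in replicate 2, that at TCFL5 529 and 1015 bp, that at ATAD3A 496 and 858 bp and that at TUBGCP6 418 and 686 bp. The PRR16 copy was 213 and 483 bp wide. The 2 copies without the pair were the narrowest in replicate 1, with 180 bp at FTCD and 133 bp at GMEB2, and they measured 584 and 250 bp in replicate 2. Of the 4 replicate 1 LTR13 peaks without a partner, 2 held the motif. Of the 7 shared windows, 1 had every 50-base stretch unique, and the median was 70.9% unique stretches.

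**Figure D4:**
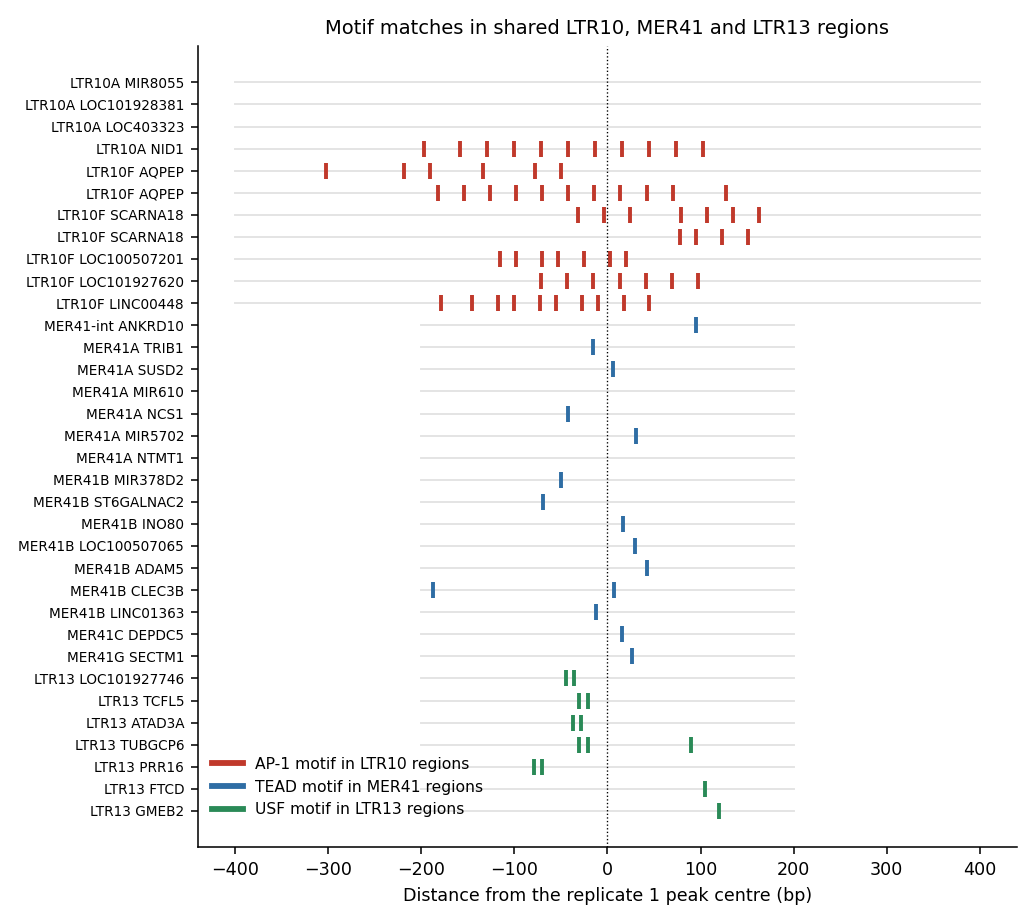
Position of each motif match, in bp from the replicate 1 peak centre, in the shared LTR10 (AP-1), MER41 with its internal part (TEAD) and LTR13 (USF) regions, 1 row a region and labelled by subfamily and assigned gene. Grey lines are the windows searched, 800 bp for LTR10 and 400 bp for the others. LTR10F rows hold 4 to 11 matches, most but not all of them 28 bp apart, MER41 rows hold 1 match except for CLEC3B with 2 and MIR610 and NTMT1 with 0, and 5 LTR13 rows hold a pair 9 bp apart.

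Over all 170 shared LTR regions, 10 motifs were counted on both strands of the 400 bp around the replicate 1 centre. They were AP-1, TCF7L2 (AACAAAG or ATCAAAG or TACAAAG or TTCAAAG), USF (CACGTG), TEAD (GGAATG), STAT (TTCCNGGAA), the CCAAT box (CCAAT), EGR1 (GCGGGGGCG or GCGTGGGCG) and, by name, SP1, NRF1 and the p53 half-site. AP-1 was in 87 regions (51.2%, 43.4 to 58.9), beside 49.9% of the 2301 other shared regions in introns or between genes (adjusted p = 0.899), and far above the 5.88% of windows 5 kb to each side of the LTR regions (adjusted p = 3.53e-30, Fisher's exact test, Benjamini-Hochberg over 10 motifs). TCF7L2, the main WNT partner of β-catenin on DNA, was in 42.9% against 45.9% of the other shared regions (adjusted exact p = 0.741) and 31.8% of the flanking windows (adjusted p = 0.0356).

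Against the other shared regions, 3 motifs passed the test. TEAD was in 40.0% of LTR regions against 28.3%, the CCAAT box in 52.4% against 40.5%, and SP1, which binds GC-rich promoters, in 0 of 170 against 4.04% (adjusted exact p = 0.00921 for each). With replicate 2 peaks alone (413 LTR peaks, shared or not), the CCAAT box was in 44.3% against 42.6%, a difference of 1.68 points that did not pass (adjusted exact p = 0.775), and the SP1 difference was -2.11 points (adjusted p = 0.0462). The exact upper bound for the 0 of 170 was 2.15%, and in windows of 200 bp the SP1 difference was -2.65 points and did not pass (adjusted p = 0.0992). The lack of SP1 was not particular to LTRs, as it was in 0 of 137 shared LINE regions and 1 of 106 shared SINE regions. The TEAD difference of 11.7 points was 14.4 points in windows of 200 bp (adjusted exact p = 9.27e-05) and 19.1 points against the flanking windows (adjusted p = 4.10e-05). Without the MER41 regions it was 6.77 points and did not pass (adjusted exact p = 0.268), in windows of 800 bp it was 7.24 points (adjusted p = 0.156), and against shared LINE regions it was -1.61 points (41.6%). In LTR10F, 34 of 44 TEAD matches in 800 bp overlapped an AP-1 match, since the repeat unit joins the letters GGAATG and TGAGTCA by their common TG. The CCAAT box was as frequent in the flanking windows (49.1%), and its difference from the other shared regions did not pass in windows of 200 or 800 bp (adjusted exact p = 0.722 and 0.0893). Without the LTR10, MER41 and LTR13 regions none of the 10 motifs passed. The CCAAT box was then in 51.5% of LTR regions against 40.5% (adjusted exact p = 0.0602) and the TEAD difference was 6.27 points (adjusted p = 0.359), while SP1, at 0 in every LTR region, had a difference that leaving out regions could not change (adjusted p = 0.0602).

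**Figure D5:**
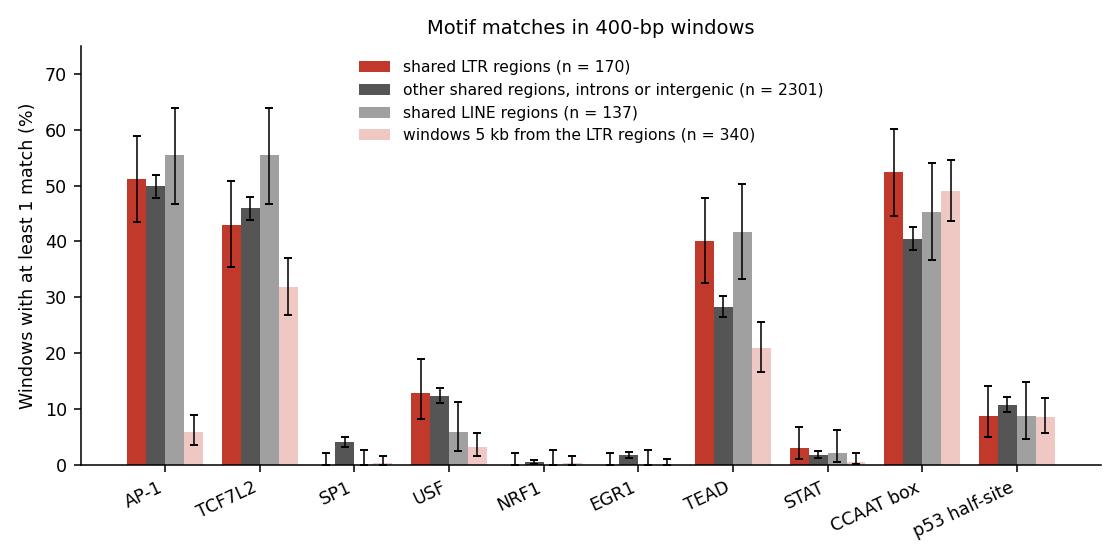
Share of 400-bp windows with at least 1 match (%) for 10 motifs in the 170 shared LTR regions, in 2301 other shared regions in introns or between genes, in 137 shared LINE regions and in 340 windows 5 kb to each side of the LTR regions, with exact 95% intervals. AP-1 is in about the same share of all 3 kinds of shared region and in 5.88% of the flanking windows.

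By family, AP-1 was in 26 of 40 shared ERVL regions and 24 of 40 ERVL-MaLR regions and in 28 of 73 ERV1 regions. TEAD was in 38 of 73 ERV1, 12 of 40 ERVL, 15 of 40 ERVL-MaLR and 3 of 12 ERVK regions, beside 40.0% of all shared LTR regions. The ERV1 regions with TEAD include 13 MER41 and 7 LTR10F regions. All 6 MER21C regions, all 4 MLT1K regions and all 3 HERVL-int regions held an AP-1 match, beside 51.2% of all shared LTR regions. Others went the other way, with 0 of 7 in MER41B, 1 of 6 in MER41A, 1 of 4 in LTR10A and 0 of 3 in THE1. These counts are described without a test because the subfamilies were picked after the counts were seen. The MER21C pair at PQLC3 and the HERVL-int pair at LOC101928381 had gaps of 34 and 8 bp, so that their 400-bp windows overlap and may hold the same match. The 3 HERVL-int windows, at LOC101928381 on chromosome 9 and ACTR3BP2 on chromosome 2, had 10.8%, 2.85% and 0% unique 50-base stretches. LTR10 is also known for p53 sites, and none of the 11 LTR10 regions held the p53 half-site in 400 bp. The half-site was in 8.82% of all shared LTR regions and 10.7% of the 2301 other shared regions in introns or between genes. The exact upper bound for the 0 of 11 was 28.5%, so 11 LTR10 regions are too few to show a lack of the half-site.

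LTR peaks found in both replicates held the AP-1 motif more often than those found in 1. In replicate 1 it was in 87 of 170 shared (51.2%) and 25 of 70 unshared peaks (35.7%, p = 0.0331), and in replicate 2 in 86 of 165 (52.1%) and 90 of 248 (36.3%, p = 0.00164; Fisher's exact test, two-sided, a comparison added after the data were seen). Without LTR10 peaks the difference was 15.4 points in replicate 1 (exact p = 0.0406) and 14.4 points in replicate 2 (p = 0.0049). Shared peaks were also the wider ones, and within the wider 50% of LTR peaks the difference was 20.9 points in replicate 1 (exact p = 0.215) and 7.94 points in replicate 2 (p = 0.319). The part of width in this difference was otherwise not tested.

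Unique sequence was less common in LTR regions than elsewhere. Every 50-base stretch of the 400-bp window was unique in hg19 in 112 of 170 shared LTR regions (65.9%), against 88.7% of 2301 other shared regions in introns or between genes (adjusted p = 9.52e-14, Fisher's exact test). In replicate 1, unshared LTR peaks had fully unique windows in 45.7% of 70 cases, and in replicate 2 the unshared share was 62.9% of 248, beside 63.6% of the shared LTR peaks. The part of read placement in the presence or width of a peak was not tested.

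The MLT1 regions were the largest group and mostly unique, with fully unique windows in 28 of 34. AP-1 was in 23 of the 34 (67.6%, exact interval 49.5 to 82.6). It was in 51.2% of all shared LTR regions and 49.9% of the 2301 other shared regions in introns or between genes. TCF7L2 was in 17 of the 34 (50%, 32.4 to 67.6), beside 42.9% and 45.9%. Both MLT1 intervals include the shares beside them, and no test was run on these MLT1 regions. The widest was an MLT1K copy at chr12:89319542-89320489, assigned to LOC728084, with 949 bp in replicate 1 and 1207 bp in replicate 2. An MLT1F copy lay 5046 bp upstream of ELFN2 (chr22:37828161-37828942, 783 and 973 bp), and an MLT1I copy lay 134182 bp upstream of FAM3C (chr7:121170267-121170942, 677 and 1041 bp). An intronic MLT1H copy in DST, which codes for the cytoskeletal linker dystonin, measured 796 and 904 bp. The others were assigned to EFR3A (MLT1G and MLT1K), NMBR, NEUROD1, DCBLD2, RHOBTB3, MIR5702, LINC00173, MIR1293, MIR4462, LINC-PINT, C2CD3, EFTUD1, MIR8056, MIR4268, MIR548M, CHST11, PPP1R1C, MMP16, EIF2AK1, ANAPC16, OSTN, PTP4A1, PIP4K2A, SNTB1, NOX3, CACUL1, UBE2Q2L, GOLGA2P6 and TBC1D5. Their replicate 1 widths ran from 151 bp at PIP4K2A to 701 bp at RHOBTB3, and their replicate 2 widths from 337 bp at TBC1D5 to 2178 bp at MIR5702.

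The shared LTR region with the lowest mean width rank was a HERVIP10FH-int copy at chr6:159151065-159152446, in an intron of SYTL3 and assigned to MIR3918, with 1383 bp in replicate 1 and 1999 bp in replicate 2. SYTL3 codes for a synaptotagmin-like protein of vesicle traffic. It ranked 8th among all 3984 shared regions, held no AP-1 match and had a fully unique window. A second copy of the same element lay 1044 bp on (chr6:159153490-159153837). It was followed by the LTR10F copy upstream of AQPEP, by a MER41B copy at MIR378D2 (chr8:94885949-94886944, 997 and 4359 bp), by an LTR40a copy in an intron of NSMCE2, the gene of a SUMO ligase (chr8:126137516-126138688, 1174 and 1638 bp), and by an LTR62 copy at PDP1 (chr8:94947912-94948731, 821 and 1886 bp). The replicate 2 partner of the MER41B copy was centred in an LTR8A element 163 bp away.

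Next in that order came a THE1D copy at SLC4A3 (chr2:220552595-220553497), with widths of 904 and 1423 bp, and the MLT1K copy at LOC728084. The second AQPEP copy of LTR10F followed. A HERVS71-int copy at RHOBTB3 (chr5:95046589-95047332) was 745 and 1189 bp wide. An LTR49-int copy lay in an intron of DDX10, the gene of an RNA helicase (chr11:108767542-108768484, 944 and 959 bp). An MLT2C1 copy at MIR5702 (chr2:227519707-227520316) was 611 and 2556 bp wide, and the 12th region was the LTR10F copy at chr5:82271446-82272177. LTR10F thus held 3 of the 12.

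Several genes had more than 1 shared LTR region. LOC101928381 and MIR5702 had 3 each. AMN1, ANKRD10, AQPEP, DCBLD2, EFR3A, MIR378D2, MIR3918, NMBR, PARD3, PQLC3, RHOBTB3, SCARNA18, ST3GAL5-AS1 and SUSD2 had 2 each. Of the 14 neighbouring pairs under 10 kb apart, 6 were of 1 subfamily, and some were parts of 1 wider region, such as the MER11B pair in PARD3, a cell polarity gene, with a gap of 13 bp and the MER21C pair at PQLC3, inside ROCK2, with a gap of 34 bp. Each of these 2 pairs had a single partner width in replicate 2, of 560 and 501 bp.

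None of the control loci (AXIN2, DKK1, MYC and SP5), the 10 candidate genes of the study, 19 WNT targets, 9 AP-1 family genes, 9 p53 targets or 8 antiviral and interferon genes had a shared LTR region assigned. The same lists held 3, 35, 18, 5, 1 and 3 shared regions of any kind, and the 4 control loci are also among the WNT targets. LTR regions were 170 of all 3984 shared regions, and at that share lists of this size would hold few or none. No test was run on these counts. Among 14 genes of EGF receptor and MAPK feedback, which held 60 shared regions, 1 had an LTR region. This was a MER41A copy 207826 bp from the start of TRIB1, a pseudokinase gene (chr8:126652091-126652463), with 374 bp in replicate 1 and 647 bp in replicate 2. Its replicate 2 centre, 97.5 bp away, lay outside the annotated repeat.

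At the edge of the rule, the shared members with the largest centre distances were an LTR16C copy at LOC100506860 (383.5 bp), the HERVS71-int copy at RHOBTB3 (326 bp) and the LTR62 copy at PDP1 (325.5 bp). The nearest unshared members were the LTR10F peak near ANKRD10 (467.5 bp) and a HERVS71-int peak at RHOBTB3 (480.5 bp) in replicate 1, and an LTR78B peak at RASA4B (525 bp) in replicate 2. The 4 widest unshared peaks of replicate 1 were in MLT1F1 at REXO1L2P (2688 bp), HERVL-int at LOC101928381 (793 bp), LTR10F near ANKRD10 (557 bp) and MER72 at LCMT1-AS2 (435 bp). Those of replicate 2 were in LTR26E at MIR378D2 (4889 bp), MLT1J at DDR1 (2097 bp), LTR16E1 at TRIB1 (1723 bp) and THE1D at NTSR1 (1624 bp), and the first of these overlapped a replicate 1 peak.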

How the data were processed

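APC ChIP and input were sequenced in 2 replicates each of HCT-116 as single-end 50-base reads. As the study's methods state, the authors aligned reads to hg19 with BWA, ran MACS2 on each replicate with the matching input as control, adjusted the threshold so that AXIN2, DKK1 and MYC peaks were kept, and annotated peaks with RefGene. The sources used here give neither tool versions nor the handling of reads with several positions. The deposited values were positions, distances in bp and a column of the authors named as a score, which equalled the end minus the start plus 2 in every row and was read as width. The deposited table of distances between replicates was not used.

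Peaks with an LTR in the detailed annotation were taken. Shares were compared by Fisher's exact test, two-sided, with Clopper-Pearson 95% intervals (scipy 1.17.1), which hold counting error alone, and Benjamini-Hochberg adjustment where stated. Motifs and 50-base stretches were counted in the GRCh37 sequence (pysam 0.24.0), and no peak passed the end of a chromosome. Nearest genes were as deposited, and genes around a region came from GENCODE. Regions were named by rule: the 12 lowest mean width ranks, every shared MLT1 region, the members nearest to 400 bp, the 4 widest unshared peaks of each replicate, subfamilies with at least 5 shared regions, genes with at least 2 and members of the gene lists. LTR10, MER41 and LTR13 regions were singled out after their values were seen. The members and lists were chosen with earlier results of these data known. The comparison procedure was tested on simulated data.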

Additional observations from a re-analysis of the deposited data

How the results depend on the processing

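No paired analysis was possible because a peak is either present or absent in each of 2 ChIP libraries and the inputs have no peak list. Precision is limited by 2 libraries of unknown depth. The following values are percentage points. In replicate 1, the LTR excess of shared peaks over all other peaks did not pass with centres under 1000 bp apart (5.47), without satellites (5.31) or against other intron and intergenic peaks (4.23). In replicate 2, the deficit did not pass at 200 bp (-4.30), in the wider 50% (-0.98) or against other intron and intergenic peaks (-5.08), and the sign turned against LINE (10.9) and SINE (7.03) peaks. The difference in the LTR share of the lists was -0.79 in the wider 50%. The difference among the widest regions turned to -0.71 for the top 250, -0.0895 for the top 1000 and -1.56 for introns and intergenic regions only, none past the threshold. The AP-1 difference between shared and unshared LTR peaks did not pass at 800 bp in replicate 1 (12.2) or in the wider 50% (20.9 and 7.94). The number of motifs past the threshold, 3, became 1 at 200 bp, 1 at 800 bp, 8 against all other shared regions, 0 against LINE regions and 0 without LTR10, MER41 and LTR13, and ran from 2 to 4 when 1 replicate was left out.

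Signs turned for AP-1 against LINE (-4.30) and SINE (-3.54) regions and without LTR10 (-0.21), and for TEAD against LINE (-1.61). For TCF7L2 they turned at 800 bp (6.26), against flanks (11.2) and against all other shared regions (10.4). For USF they turned at 200 bp (-1.09), in whole peaks (-0.71), against all other shared regions (-7.56) and without the 3 groups (-1.27). For the p53 half-site they turned against flanks (0.29), LINE (0.0644) and SINE (4.11) regions and without the 3 groups (0.29). With 1 replicate left out, differences ran from -1.49 to 1.37 for TCF7L2, from -0.14 to 0.25 for USF and from -0.75 to 0.97 for STAT. The turns of TCF7L2 against flanks and against all other shared regions and of USF against all other shared regions passed the threshold, and the causes were not tested. The comparisons without MER41 or without the 3 groups were added after the data were seen.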
